A study of Mus musculus with 27 samples.

Results

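The 10 genes described here are 5 annexins (Anxa1, Anxa2, Anxa3, Anxa5 and Anxa7) and 5 S100 genes (S100a4, S100a6, S100a10, S100a11 and S100g), of 19392 genes listed by symbol in the deposited table. They were chosen by name from these families with their measured levels over ischemia time known, so their levels and changes are given as a description, with no p-value. The RNA-Seq libraries came from left kidneys of 27 C57BL/6 mice, 3 for each of 9 ischemia times. The left renal pedicle was clamped for 0 (Sham), 16, 18, 20, 22, 24, 26, 28 or 30 min, and the kidney was taken after 24 h of reperfusion. The right kidney was removed from all mice, Sham included, so each group is a single kidney model and no kidney of an unoperated mouse is among them. The labels give neither the age nor the sex of the mice. Unsorted kidney tissue was measured, in which fewer cells of a type and less RNA per cell cannot be told apart. A part of each left kidney was fixed for histology, and the paper does not say which part gave the RNA.

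Annexins are proteins that bind negatively charged membrane phospholipids when calcium is present, and many of them take part in membrane organization, vesicle traffic and repair of the plasma membrane. S100 proteins are small EF-hand proteins, most of them calcium sensors that work as dimers. Several of them bind the N-terminal tail of a particular annexin: S100a10 pairs with annexin A2, and S100a11 with annexin A1. S100g, also called calbindin-D9k, is an S100 protein of another use. It buffers calcium in the epithelium of the distal nephron and the intestine, and its gene responds to vitamin D.

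In the GENCODE M21 annotation of GRCm38, S100a4 (chr3:90603771-90606045), S100a6 (chr3:90612882-90624181), S100a11 (chr3:93520488-93526287) and S100a10 (chr3:93555080-93564643) lie on the plus strand of chromosome 3, in 2 places. S100g lies apart from them on the minus strand of chromosome X (chrX:162961992-162964599), inside the span of Ctps2 on the other strand. S100a4 overlaps the gene model Gm42674 on its own strand, so reads of these genes may have been shared. The annexins are scattered, with Anxa1 on chromosome 19 (20373428-20390944, minus strand), Anxa2 on chromosome 9 (69453620-69491795, plus strand), Anxa3 on chromosome 5, Anxa5 on chromosome 3 and Anxa7 on chromosome 14. Each of the 5 S100 members has 3 exons and a coding length of 79 to 101 residues, and each of the 5 annexins has 13 exons and 319 to 463 residues.

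Promoter letters are shown for Anxa2 and S100a11, the member genes whose windows held an AP-1 motif, and for S100a6, the member with the largest change, whose window held none. They were chosen after the search and the values were seen. RefSeq promoter windows on GRCm38.p6 were at hand for 8 of the 10 members, in 9 windows (Anxa7 has 2), and for neither Anxa3 nor S100a10. The 250 bases before the start are printed below 5′ to 3′ on the plus strand, with matches to TGANTCA, the AP-1 motif, in capitals. They are chr9:69453433-69453682 for Anxa2, chr3:93520246-93520495 for S100a11 and chr3:90612644-90612893 for S100a6.
Anxa2: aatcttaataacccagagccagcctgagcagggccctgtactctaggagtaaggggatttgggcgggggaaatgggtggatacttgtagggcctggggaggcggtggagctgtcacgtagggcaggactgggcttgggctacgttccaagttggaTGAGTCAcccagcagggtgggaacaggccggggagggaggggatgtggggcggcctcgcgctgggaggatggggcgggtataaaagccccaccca
S100a11: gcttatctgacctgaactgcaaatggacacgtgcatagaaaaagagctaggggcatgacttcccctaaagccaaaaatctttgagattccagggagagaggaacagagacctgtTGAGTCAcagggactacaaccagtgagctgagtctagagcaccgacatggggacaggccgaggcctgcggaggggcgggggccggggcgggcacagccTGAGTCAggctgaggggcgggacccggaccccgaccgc
S100a6: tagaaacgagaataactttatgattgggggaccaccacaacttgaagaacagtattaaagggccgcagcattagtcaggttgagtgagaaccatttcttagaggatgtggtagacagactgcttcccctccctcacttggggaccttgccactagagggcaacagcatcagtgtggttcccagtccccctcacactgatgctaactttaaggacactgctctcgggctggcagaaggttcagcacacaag
The match in Anxa2 began at base -95 from the start, and those in S100a11 at -136 and -38. Over windows of 300 bases, from 250 before to 50 after the start and on both strands, 7.81% of 32851 promoters held TGANTCA, against the windows of 2 member genes. The windows of the other 6 member genes, S100a6 and Anxa1 among them, held no match to it. The GC box letters GGGCGG stood in the windows of Anxa2, Anxa7 and S100a11 and in 35.7% of all promoters. TATAAA stood in those of Anxa1, Anxa2, S100a4 and S100g and in 13.6% of all. GGAATG, the TEAD motif, stood only in that of Anxa1 among the members and in 14.7% of all, and the STAT motif TTCNNNGAA in none of the 9 and in 8.3% of all. No overlap between these motifs was removed, and a match is a run of letters in a window, not a binding site.

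The deposited unit is FPKM, the fragments of a gene divided by transcript length in kilobases and by the reads mapped, so that levels can be compared between genes per length. Read counts are not given and the depth behind each value is unknown. Summed over genes, the FPKM of a kidney lay between 512453 and 554036. All 10 members were above 0 FPKM in all 27 kidneys and entered the fit of 18188 genes. Changes are log2 fold changes of quantile normalized log2(FPKM + 1), with the standard error (SE) of limma. The SE of a gene rests on a spread pooled over all ischemia times. It is thus the same in each comparison and does not measure the spread within a single group. A gene was called where the absolute log2 fold change was above 1 and the Benjamini-Hochberg adjusted p was under 0.05. Members were called from the fit in the same way as every other gene, and for them this is a description.

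A pair of kidneys stood apart. Replicate 3 at 16 min was the lowest of the 24 ischemic kidneys for all members but S100g. It was singled out by these levels, so leaving it out raises the changes at 16 min by construction. Its Krt20, a keratin of injured tubules, was 1.97 FPKM, against 5.07 and 15.09 in the other two kidneys at 16 min. Summed over 4 injured-tubule markers it had 70.2 FPKM, while the Sham kidneys had between 15.6 and 89.9 FPKM. The highest of these was Sham replicate 3, whose Krt20 was 1.11 FPKM against 0.23 and 0.32 in the other Sham kidneys. The log2 fold changes at 16 min are given beside their values with each kidney of that time left out where these end a call or move the value by more than 1.5 times, and without replicate 3.

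Over the 10 members, between 4 and 7 were called at each time from 16 to 26 min, 8 at 28 min and 9 at 30 min. With 1 kidney left out, the counts at 16, 20 and 22 min reached 7, the lowest count at 28 min. At 16 min against 0 min, 4 members were called higher and 1 lower, while 1.28% of all tested genes were called higher and 0.979% lower. Leaving out replicate 3 at 16 min, 7 members were called in all, in place of 5. Without replicate 2 at 16 min 2 were called, and 3 were called without replicate 1 at 16 min or without Sham replicate 2. After 18 min 6 were called higher and 0 lower (1.97% and 1.09% of all genes). At 20 min 6 were higher and 1 lower (1.55% and 0.962%), and without Sham replicate 2 the total was 4 in place of 7. At 22 min 4 were higher and 0 lower (2.09% and 1.2%), and without replicate 2 at 22 min 7 were called. At 24 min 4 were higher and 0 lower (1.97% and 1.15%). At 26 min 5 were higher and 0 lower (2.16% and 1.61%), with 3 called without replicate 3 at 26 min.

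With 28 min of ischemia 7 members were called higher and 1 lower, beside 4.27% and 4.21% of all genes. At 30 min 8 were called higher and 1 lower (5.14% and 5.59%). The median log2 fold change over the 10 members went from 0.93 (16 min) and 0.92 (26 min) to 1.75 (28 min) and 1.80 (30 min), while the median over all tested genes stayed between -0.01 and 0.004. Anxa2, Anxa3 and S100a6 were called higher at all 8 ischemia times and Anxa7 at none.

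**Figure D1:**
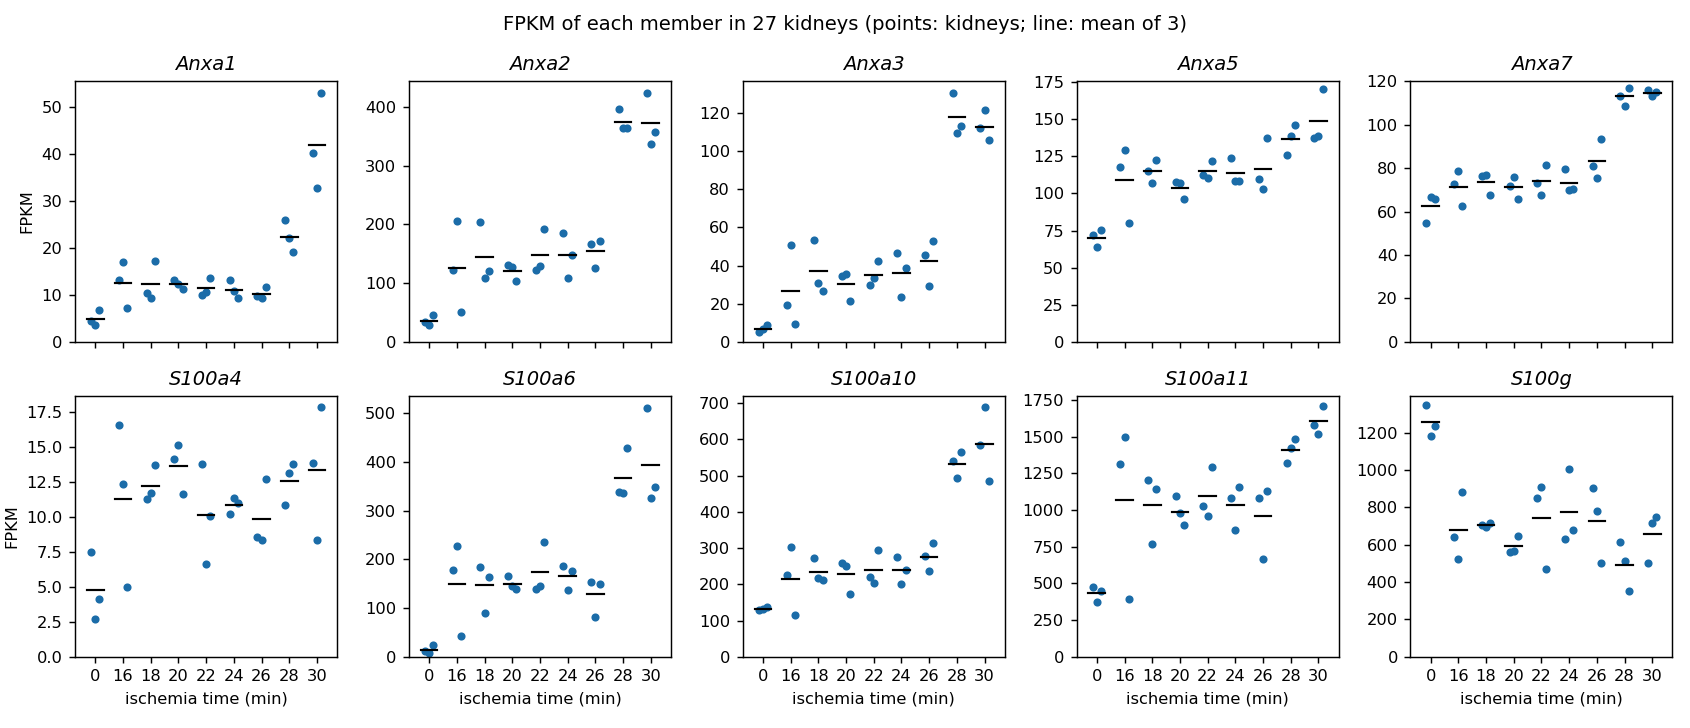
FPKM of the 10 members (vertical axes, linear and starting at 0, a scale for each gene) against ischemia time in min, with a point for each kidney and a line at the mean of 3. Anxa2 lies between 28.77 and 45.9 FPKM at 0 min, between 50.94 and 205.14 from 16 to 26 min and between 336.82 and 424.15 at 28 and 30 min, and S100g is highest at 0 min.

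Between neighbouring ischemia times, members were called only at 28 against 26 min. From 16 to 26 min, each time against the one before, 0 members and 0.0% of all genes were called. In these 5 comparisons 977, 514, 447, 469 and 1100 of the 18188 genes had an unadjusted p under 0.05 in limma. A share of 0.05 would be met without any change, so these counts are not read as changes. At 28 min against 26 min, 4 members were called higher and 0 lower, beside 0.44% and 1.06% of all genes. These were Anxa1, Anxa2, Anxa3 and S100a6. The count rested most on replicate 2 at 26 min. Without it 0 members were called, at log2 fold changes of 0.97 for Anxa1, 1.12 for Anxa2, 1.26 for Anxa3 and 1.24 for S100a6. Without replicate 1 at 28 min 2 were called. The call of S100a6 was also lost without replicate 1, 2 or 3 at 28 min, at 1.57, 1.57 and 1.42. In FPKM the 28 min and 26 min kidneys overlapped for Anxa5, S100a4 and S100g and not for the other members. For most of the other tested annexin and S100 genes they did not overlap either, and the share over all genes was not computed. In this comparison 5635 of the 18188 genes had an unadjusted p under 0.05 in limma. The lack of overlap is thus not read as a result about the members. At 30 min against 28 min 0 members were called, beside 0.401% of all genes higher and 0.649% lower, and 1 was called without replicate 1 at 28 min or without replicate 2 at 30 min.

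The annexins fell into a group of large changes and a group of small ones. Anxa2, the calcium-dependent membrane scaffold that carries S100a10, was at 33.64, 28.77 and 45.9 FPKM in the 3 Sham kidneys. At 16 min it was 121.6, 205.14 and 50.94 FPKM, and at 26 min 165.77, 125.47 and 171.66. At 28 min it was 397.0, 363.63 and 363.98 FPKM, and at 30 min 424.15, 336.82 and 357.97. No ischemic kidney overlapped the Sham kidneys, and all 6 kidneys of 28 and 30 min lay above all 18 of 16 to 26 min. Against 0 min the log2 fold change of Anxa2 reached 1.53 after 16 min of ischemia, 2.0 after 26 min, 3.26 after 28 min and 3.32 after 30 min (SE 0.34, n = 3 against 3 kidneys). Without replicate 3 at 16 min the first of these was 2.05, and without replicate 2 it was 1.07. By mean FPKM Anxa2 moved from rank 2322 among all genes at 0 min to rank 201 at 30 min.

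Anxa3, an annexin found in epithelia and neutrophils, had low levels in Sham kidneys, at 5.28, 6.73 and 8.54 FPKM. At 16 min its levels were 19.43, 50.63 and 9.31 FPKM, the widest spread among the kidneys of any ischemia time for this gene. At 28 min they were 130.61, 109.45 and 113.41 FPKM and at 30 min 112.0, 121.48 and 105.66. The 2 longest times overlapped each other and lay above all others. Its log2 fold change was 1.42 at 16 min (1.96 without replicate 3 and 0.82 without replicate 2, which ended the call), 2.34 after 26 min, 3.85 after 28 min and 3.86 after 30 min (SE 0.39). Without Sham replicate 1 (1.27) or 2 (1.43) the call at 16 min was lost as well. In mean FPKM this was 16.5 times the Sham level at 30 min.

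Anxa1, the glucocorticoid-regulated annexin known for limiting leukocyte recruitment, was the only annexin here whose 30 min kidneys lay clear of the 28 min ones. It was at 4.48, 3.62 and 6.69 FPKM at 0 min and between 7.21 and 17.22 in the 18 kidneys of 16 to 26 min, with a median of 10.93. At 28 min it was 25.82, 22.13 and 19.08 FPKM, and at 30 min 40.09, 32.61 and 53.0. The 3 kidneys of 30 min lay above those of 28 min, and these above all shorter times. Its log2 fold change against Sham was 1.03 after 16 min, 0.82 after 26 min, 1.85 after 28 min and 2.79 after 30 min (SE 0.25). At 16 min it was 1.33 without replicate 3, and the call was lost without replicate 1 (0.96), without replicate 2 (0.80), and without Sham replicate 1 (0.99) or 2 (0.88). From 28 to 30 min it was 0.94 (SE 0.25), under the threshold of 1. Its receptor genes stayed low, with Fpr1 listed at 0 in all Sham kidneys and neither Fpr1 nor Fpr2 called in any comparison.

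Anxa5 and Anxa7 changed least. Anxa5, the phosphatidylserine-binding annexin used to stain dying cells, was at 71.69, 63.94 and 75.03 FPKM in Sham kidneys and 137.25, 138.85 and 170.49 at 30 min. Its log2 fold change was 0.55 after 16 min of clamping, 0.92 after 28 min and 1.13 after 30 min (SE 0.14), and it was called at 30 min only. Without replicate 3 at 30 min that call was lost, at 0.97, and without replicate 3 at 16 min the change there was 0.74. The groups did not overlap with Sham at any of the 8 times, although the changes before 30 min stayed under 1.

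Anxa7, a membrane-fusing annexin first called synexin, was at 54.48, 66.74 and 65.86 FPKM at 0 min. It overlapped Sham at 16 and 20 min, and its log2 fold change stayed between 0.11 and 0.35 from 16 to 26 min, with 0.21 at 16 min without replicate 3 and 0.06 without replicate 2. At 28 min it was 113.41, 108.66 and 117.0 FPKM, above all shorter times, and at 30 min 116.1, 113.24 and 114.89. These log2 fold changes of 0.80 and 0.90 (SE 0.10) did not reach the threshold, though the spread among the 3 kidneys was small.

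The S100 partners of these annexins had Sham levels far apart from each other, and each was called higher at the longest times. S100a10, the light chain of the annexin A2 tetramer, was at 130.28, 130.59 and 136.46 FPKM in Sham kidneys, already above Anxa2. It was at 224.33, 302.7 and 114.39 FPKM at 16 min, where the last kidney lay below all Sham kidneys. At 28 min it was 541.16, 492.39 and 565.68 FPKM and at 30 min 584.65, 690.39 and 485.22, all above every shorter time. The log2 fold change was 0.56 at 16 min (0.95 without replicate 3 and 0.26 without replicate 2), 1.06 after 26 min, 1.92 after 28 min and 2.10 after 30 min (SE 0.25). The call at 26 min was lost without replicate 3 of that time, at 0.95.

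The ratio of S100a10 to Anxa2 in FPKM was between 2.97 and 4.54 in the Sham kidneys and between 1.33 and 2.25 in the 24 ischemic kidneys, without overlap. At 16 min it was already 1.48 to 2.25, and at 28 min 1.35 to 1.55. Anxa2 thus gained more than S100a10 relative to their Sham levels, at 10.3 and 4.43 times in mean FPKM at 30 min. For the other pair, S100a11 to Anxa1, the ratio was 67.4 to 107 at 0 min, 51.2 to 77.7 at 28 min and 32.3 to 46.6 at 30 min, so the 30 min kidneys lay below those of Sham while those of 28 min overlapped with them.

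**Figure D2:**
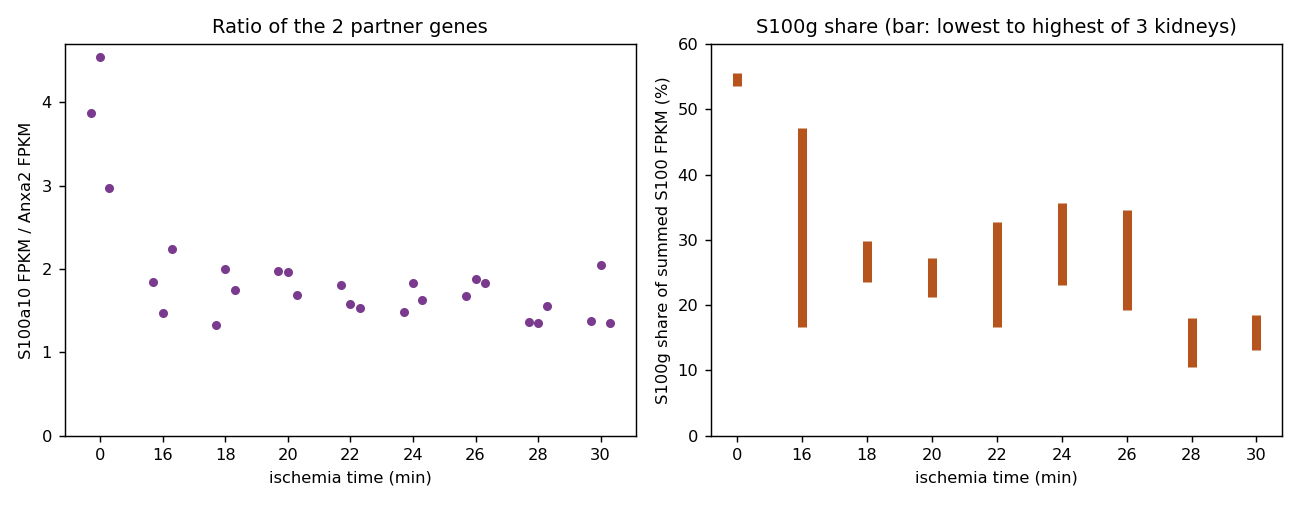
Left, FPKM of S100a10 divided by FPKM of Anxa2 in each kidney against ischemia time in min, with the 3 Sham kidneys between 2.97 and 4.54 and the ischemic kidneys between 1.33 and 2.25. Right, the share in percent of S100g in the summed FPKM of 16 S100 genes, with a bar from the lowest to the highest of 3 kidneys, from 53.5% to 55.5% at 0 min down to 10.5% to 18.0% at 28 min.

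S100a6, also called calcyclin and known from proliferating cells and fibroblasts, had the largest log2 fold change of the 10 members at each of the 8 times. In Sham kidneys it was at 10.88, 8.27 and 24.7 FPKM, where the last value is from the kidney whose injury markers were also high. At 16 min it was 178.87, 227.06 and 41.67 FPKM, and at 26 min 152.83, 82.32 and 149.42. At 28 min it was 337.38, 337.09 and 427.9 FPKM, and at 30 min 510.16, 325.36 and 347.71. No group overlapped with Sham, and the 6 kidneys of 28 and 30 min lay above all others. The log2 fold change was 3.0 after 16 min (3.73 without replicate 3), 3.47 after 22 min, 3.05 after 26 min, 4.57 after 28 min and 4.71 after 30 min (SE 0.46). In mean FPKM S100a6 went from rank 4892 at 0 min to rank 197 at 30 min. Its ratio to Anxa2, another annexin it is known to bind, was 0.287 to 0.538 at 0 min and at least 0.656 in every ischemic kidney.

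S100a11, the partner of annexin A1 and also called calgizzarin, was by mean FPKM the most abundant member of those called higher. It was at 479.22, 374.15 and 450.87 FPKM in Sham kidneys and at 1311.91, 1497.41 and 394.7 at 16 min, where replicate 3 fell within the Sham range. At 26 min it was 1080.59, 668.66 and 1130.42 FPKM, at 28 min 1322.31, 1422.3 and 1482.7, and at 30 min 1582.16, 1520.78 and 1710.73. In FPKM it stood at rank 22 of all genes at 30 min, against rank 156 at 0 min. The log2 fold change was 0.94 at 16 min (1.48 without replicate 3, 0.62 without replicate 2 and 0.73 without replicate 1), 1.02 after 26 min, 1.66 after 28 min and 1.5 after 30 min (SE 0.30). The call at 26 min was lost without replicate 1 (0.93) or 3 (0.90) of that time and without Sham replicate 2 (0.89). For a gene at the top of the range the scaling matters: from 28 to 30 min the change was -0.16 after quantile normalization, 0.19 without it and 0.20 after rescaling to a constant sum. A processed pseudogene, S100a11-ps, lies on chromosome 12 and could share reads with it.

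S100a4, a marker of fibroblasts and some leukocytes, was the least abundant member at 0 and at 30 min by mean FPKM. It was at 7.47, 2.71 and 4.16 FPKM in Sham kidneys, 16.58, 12.33 and 4.96 at 16 min, 14.16, 15.09 and 11.66 at 20 min, and 13.84, 8.36 and 17.86 at 30 min. It overlapped with Sham at 16 and 22 min. Its log2 fold change was 1.31 after 20 min, 0.83 after 26 min, 1.15 after 28 min and 1.23 after 30 min (SE 0.33). At 16 min it was 0.92, and 1.36 without replicate 3 or 0.60 without replicate 1. The calls at 28 and 30 min were lost without Sham replicate 2, at 0.90 and 0.97. Between 28 and 26 min its kidneys overlapped, unlike those of S100a6, S100a10 and S100a11, at 10.81, 13.11 and 13.74 FPKM against 8.52, 8.32 and 12.72.

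Fibroblast and macrophage markers stood beside S100a4 as follows. Over 5 fibroblast genes the summed level was between 37.0 and 41.0 FPKM at 0 min, between 72.5 and 157 from 16 to 26 min, at 81.6 in the middle kidney of 28 min and between 37.2 and 108 at 30 min. Col1a1 and Col1a2 were called higher at all 8 times and Dcn lower at 28 and 30 min. The 5 macrophage genes summed to between 36.4 and 42.2 FPKM at 0 min and between 38.6 and 67.6 afterwards. Of these Cd68 was called higher at all 8 times and Csf1r lower from 26 to 30 min. Their part in the level of S100a4 was not tested.

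S100g moved the other way. It was the most abundant of the 10 in Sham kidneys, at 1345.54, 1181.72 and 1235.55 FPKM and rank 24 of all genes. At 16 min it was 639.3, 523.12 and 879.8 FPKM, and it lay below all Sham kidneys in each of the 24 ischemic kidneys. At 24 min it spread from 630.87 to 1006.33 FPKM. At 28 min it was 611.86, 511.11 and 353.69 FPKM, and at 30 min 502.94, 714.49 and 746.07, overlapping the 16 to 26 min kidneys. The log2 fold change was -1.01 at 16 min (-1.24 without replicate 3), -0.86 after 26 min, -1.55 after 28 min and -1.09 after 30 min (SE 0.27). It was called lower at 16, 20, 28 and 30 min. The call at 16 min was lost without replicate 1 (-0.98) or 2 (-0.82) of that time, without Sham replicate 1 (-0.96), without quantile normalization (-0.91) and after rescaling to a constant sum (-0.90). The call at 30 min was lost without replicate 1 of that time (-0.89) and under both of these scalings (-0.96).

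With S100g lower and the others higher, the makeup of S100 expression changed. S100g took 53.5% to 55.5% of the summed FPKM of 16 S100 genes in Sham kidneys, 16.6% to 47.2% in the kidneys of 16 to 26 min, 10.5% to 18.0% at 28 min and 13.2% to 18.5% at 30 min. The sum itself was 2128 to 2449 FPKM at 0 min and 3805 to 4023 at 30 min. The sum over 12 annexin genes was 318 to 349 FPKM at 0 min, 542 to 684 at 26 min, 972 to 1028 at 28 min and 991 to 1067 at 30 min.

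Other genes of distal tubular calcium transport were read beside S100g from a list of 5. Calb1, the larger calbindin of the distal tubule, was at 181.09, 153.9 and 121.51 FPKM at 0 min, 179.63, 237.66 and 73.27 at 26 min, and 55.98, 33.32 and 23.25 at 28 min. It fell by 2.09 on the log2 scale at 28 min against 0 min (SE 0.42, limma, adjusted p = 0.000339) and by 2.05 against 26 min (adjusted p = 0.00195), and by 1.57 at 30 min (adjusted p = 0.00343). Slc8a1, the sodium-calcium exchanger, fell by 1.34 at 28 min (limma, adjusted p = 0.00651) and by 1.42 at 30 min (adjusted p = 0.00368). Vdr, the vitamin D receptor, was at 90.6, 69.64 and 59.48 FPKM at 0 min and 22.09, 34.13 and 34.29 at 30 min, where it fell by 1.30 (limma, adjusted p = 9.13e-06). The calcium channel Trpv5 was not called at any time. Its log2 fold change was 0.56 at 26 min (SE 0.15, limma, adjusted p = 0.00822) and -0.15 at 30 min (adjusted p = 0.432). The calcium pump Atp2b1 was not called either, at 0.41 at 26 min and 0.51 at 28 min (SE 0.11, limma, adjusted p = 0.00662 and 0.000507). These values lay above Sham, unlike those of S100g. None of these 5 was called from 16 to 26 min, whereas S100g was called at 16 and 20 min; the difference between the genes was not tested. Over 3 distal convoluted tubule markers the level was 226 to 254 FPKM at 0 min, 124 to 278 from 16 to 26 min, 102 to 136 at 28 min and 95.7 to 168 at 30 min. The part of these cells in the level of S100g was not tested.

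The partner list of 16 genes had calls against Sham from 24 min on. None was called from 16 to 22 min. In each of these comparisons 2 to 4 had an unadjusted p under 0.05 in limma, beside 5796 to 7121 of all 18188 genes. At 24 min 1 was called higher, beside 1.97% of all genes, and at 26 min 2, beside 2.16%. At 28 min 2 were called higher and 2 lower (4.27% and 4.21% of all genes). At 30 min 4 were called higher and 3 lower (5.14% and 5.59%). Dysf, dysferlin of membrane repair, was at 3.26, 2.59 and 3.56 FPKM at 0 min and 11.68, 13.76 and 16.88 at 30 min. It was called higher at 24, 26, 28 and 30 min, at 1.74 on the log2 scale at 30 min (SE 0.19, limma, adjusted p = 2.03e-07). From 16 to 22 min its log2 fold changes were already 0.77 to 0.95, under the threshold of 1 (limma, adjusted p = 0.001 to 0.0061). Ahnak, the giant scaffold bound by the annexin A2 and S100a10 complex, was called higher at 30 min, at 1.53 (SE 0.13, adjusted p = 7.55e-09, limma). It went from 9.69, 9.92 and 11.7 FPKM at 0 min to 31.11, 35.98 and 34.14 at 30 min. At 28 min its log2 fold change was 0.97, just under the threshold (limma, adjusted p = 4.31e-06). Myh9, the non-muscle myosin heavy chain that S100a4 binds, was called higher from 26 min on, at 1.56 at 30 min (SE 0.14, limma, adjusted p = 2.47e-08). From 16 to 24 min its log2 fold changes were already 0.69 to 0.83, under the threshold of 1 (limma, adjusted p = 0.000353 to 0.00202). Ager, the receptor for advanced glycation end products that binds S100 proteins, was called higher at 30 min, at 1.24 (SE 0.13, limma, adjusted p = 1.2e-07). It went from 1.06 FPKM at 0 min to 4.42 at 30 min on average. At 28 min its log2 fold change was 0.65 (limma, adjusted p = 0.000315). The calls lower at 30 min were Calb1, Slc8a1 and Vdr.

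The other annexin and S100 genes were called at the 2 longest times only, in the comparisons with Sham. Of 18 from the family lists, 17 were tested, and S100a5 was above 0 in too few kidneys. None of the 17 was called from 16 to 26 min, beside 1.28% to 2.16% of all genes called higher and 0.962% to 1.61% lower. Between 4 and 8 had an unadjusted p under 0.05 in limma at these times, beside 5796 to 7230 of all 18188 genes. Changes under the threshold of 1 were present earlier. From 16 to 26 min Anxa4, Anxa6 and S100a16 had log2 fold changes of 0.40 to 0.66 (limma, adjusted p of at most 0.013). At 28 min 3 were called higher (Anxa4, S100a3 and S100a16), beside 4.27% of all genes. At 30 min 7 were called higher and 1 lower, beside 5.14% and 5.59% of all genes. The median log2 fold change over the 17 was 0.06 at 16 min, 0.48 at 28 min and 0.63 at 30 min. Since the 10 members were chosen with their levels known, the difference between both sets was not tested.

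**Figure D3:**
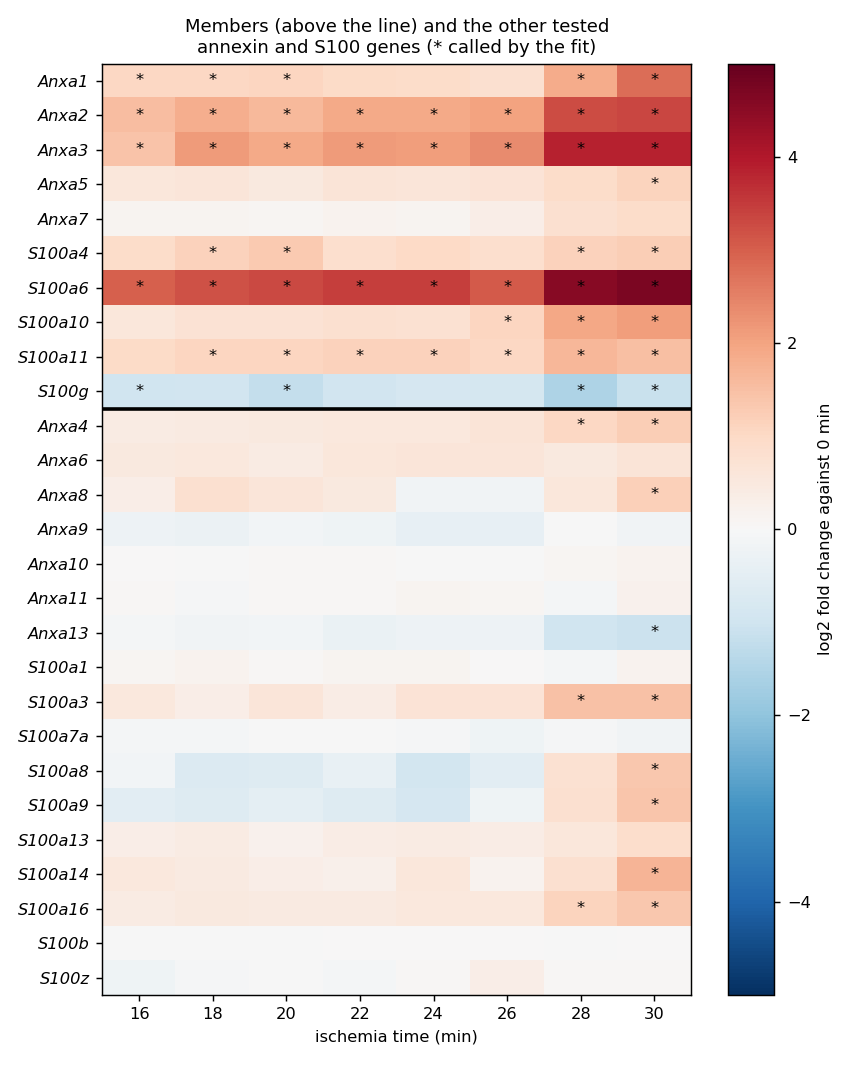
Log2 fold change against 0 min (colour, red higher and blue lower) for the 10 members above the line and the other 17 tested annexin and S100 genes below it, at 8 ischemia times in min, with an asterisk where the fit called the gene. S100a6 is the darkest at each time, and below the line the calls stand at 28 and 30 min only.

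Anxa4, an epithelial annexin, was at 55.38, 52.23 and 50.85 FPKM at 0 min and 121.16, 130.5 and 116.73 at 30 min. It rose by 1.04 on the log2 scale at 28 min and by 1.22 at 30 min (SE 0.10, limma, adjusted p = 1.06e-07 and 6.11e-09). The call at 28 min was lost without replicate 1 of that time, at 0.98. S100a16 was at 40.59, 38.61 and 42.68 FPKM at 0 min and 107.87, 106.51 and 102.9 at 30 min, a rise of 1.36 (SE 0.11, limma, adjusted p = 3.19e-09). S100a3 was at 0.1 FPKM in each Sham kidney and at 2.48, 2.09 and 1.59 at 30 min (log2 fold change 1.46, SE 0.24, limma, adjusted p = 2.8e-05), on a scale that understates the change of low genes. S100a14 rose at 30 min by 1.70 (SE 0.33, limma, adjusted p = 0.000204), at 11.5, 5.33 and 2.79 FPKM.

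Anxa8 was called at 30 min only (log2 fold change 1.19, SE 0.45, limma, adjusted p = 0.0306), at 3.96, 2.21 and 1.25 FPKM. The call was lost without Sham replicate 1 or 2 and without 30 min replicate 1 or 2, with adjusted p from 0.0632 to 0.137. Anxa13, an annexin of epithelial apical membranes, fell by 1.08 at 30 min (SE 0.25, limma, adjusted p = 0.00105), from 2.77, 1.75 and 1.57 FPKM to 0.4, 0.87 and 0.37. This call was lost without quantile normalization (-0.96), without Sham replicate 1 (-0.93) and without replicate 3 at 30 min (-0.98). S100a1, a calcium sensor best known from heart muscle, at 361.38 to 412.99 FPKM in Sham kidneys, was not called at any time.

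S100a8 and S100a9, the calprotectin subunits of neutrophils, rose late. S100a8 was at 0.55, 3.37 and 3.17 FPKM at 0 min, 1.55, 1.02 and 1.44 at 26 min, and 5.19, 12.12 and 6.5 at 30 min. It rose by 1.35 at 30 min against 0 min (SE 0.37, limma, adjusted p = 0.00447) and by 1.29 at 28 against 26 min (adjusted p = 0.0198). The call at 30 min was lost without Sham replicate 1, at 0.85 on the log2 scale. S100a9 rose by 1.39 at 30 min (SE 0.33, limma, adjusted p = 0.00119) and by 1.05 at 28 against 26 min (adjusted p = 0.029). For this pair the step at 28 min was lost without replicate 2 at 26 min or without replicate 1 at 28 min, when neither of them was called, and 1 of them was lost without replicate 1 at 26 min or without replicate 2 or 3 at 28 min. Over 5 neutrophil genes the sum was 3.48 to 4.75 FPKM at 0 min, 5.22 to 6.1 at 28 min and 6.98 to 9.25 at 30 min. Mpo was listed at 0 in every kidney from 20 min on, and Ly6g was between 0.2 and 0.28 FPKM at 30 min. The part of neutrophils in these levels was not tested.

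Markers of tubular cells stood beside the step at 28 min. The 5 proximal tubule markers summed to 2620 to 2980 FPKM at 0 min, 1720 to 3130 from 16 to 26 min, 1100 to 1210 at 28 min and 651 to 765 at 30 min. The 4 injured-tubule markers summed to 70.2 to 1220 FPKM from 16 to 26 min, 2140 to 2260 at 28 min and 2510 to 4910 at 30 min. Of these 3 were called higher at each time from 16 to 26 min, 4 at 28 min and 3 at 30 min. Their part in the levels of the annexins and S100 genes was not tested.

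**Figure D4:**
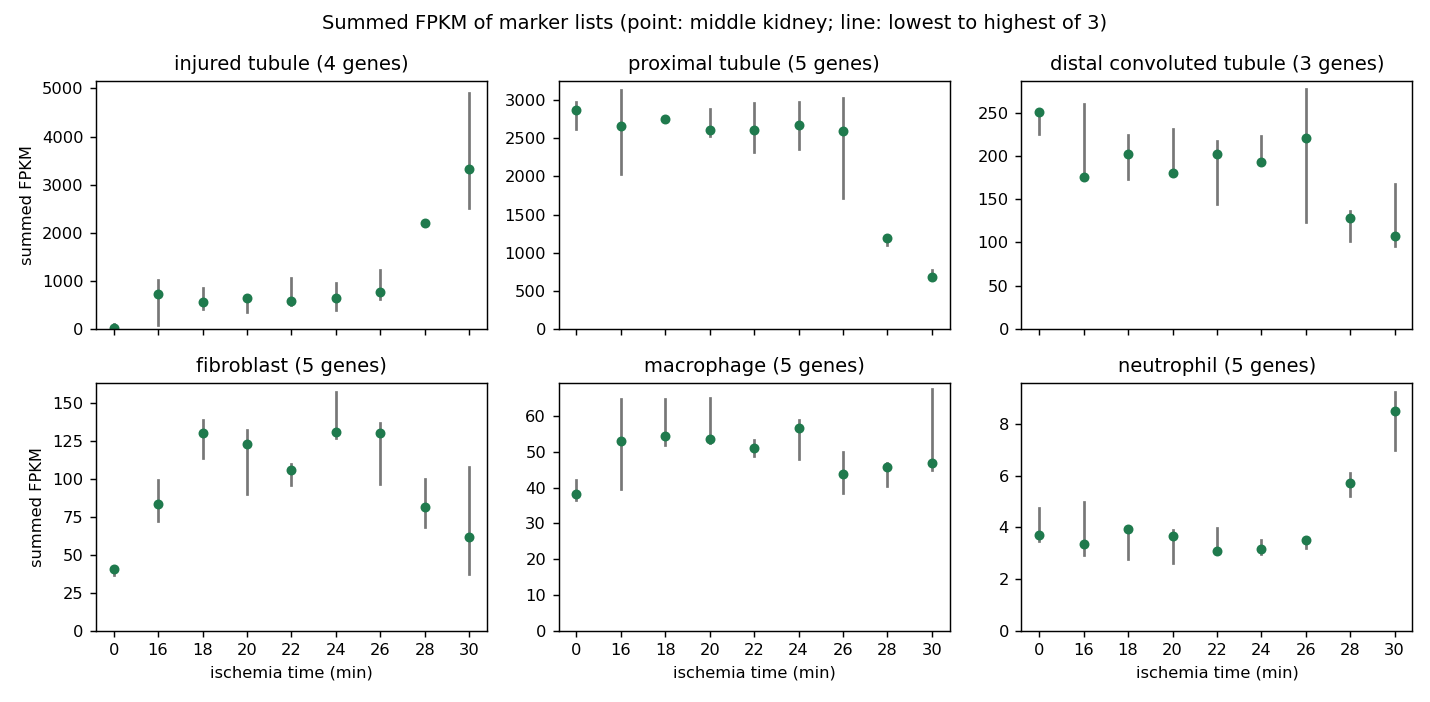
Summed FPKM of 6 lists of marker genes (vertical axes, linear and starting at 0) against ischemia time in min, with a point at the middle kidney and a line from the lowest to the highest of 3. Injured-tubule markers go from 15.6 to 89.9 FPKM at 0 min up to 2510 to 4910 at 30 min, and proximal tubule markers from 2620 to 2980 down to 651 to 765.

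Within the 18 kidneys of 16 to 26 min, where no neighbouring times differed in any call, some of the members varied together from kidney to kidney. Over the 36 pairs without S100g, Pearson's r had a median of 0.72 and ran from 0.15 to 0.97, and without replicate 3 at 16 min from -0.30 to 0.93 with a median of 0.53. The 3 highest are named first: r was 0.97 between S100a6 and S100a11 and 0.94 between Anxa2 and S100a10, with Spearman's rho of 0.96 and 0.91. Anxa2 and Anxa3 had an r of 0.94 and a rho of 0.90. Without replicate 3 at 16 min these r were 0.93, 0.88 and 0.88 over 17 kidneys. Anxa2 and S100g had an r of -0.58, and -0.53 without that kidney. Anxa2 and S100a4 had an r of 0.32, and -0.21 without that kidney, so this relation rests on it, and Anxa1 and Anxa3 had 0.35, and 0.03 without it. The kidneys share the scaling of their libraries, and these coefficients pool 6 ischemia times.

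Over all 27 kidneys the gene whose normalized pattern was most like that of each member was found by Pearson's r. It was Ap1s1 for Anxa2 (r = 0.992), Eif6 for S100a10 (r = 0.991), Rtn4 for Anxa7 (r = 0.987) and Cstb for Anxa3 (r = 0.983). For S100a6 it was Rpsa (r = 0.977), for Anxa5 Vasp (r = 0.972), for Anxa1 Niban2 (r = 0.966), for S100a11 Rgs19 (r = 0.958), for S100g Oxgr1 (r = 0.926) and for S100a4 Lyz2 (r = 0.878). Within the 18 kidneys of 16 to 26 min these coefficients were between 0.743, for Anxa1 and Niban2, and 0.965, for S100a10 and Eif6.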

How the data were processed

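Left kidneys of 27 C57BL/6 mice were sequenced, 3 for each of 9 ischemia times. The authors deposited 1 FPKM value for each gene symbol in each kidney. The submitters' processing notes name Bowtie2, RSEM and DESeq2, without versions, and the build GRCm38.p6. Read counts were not used here, so depth is unknown. Each group has 3 kidneys, and the SE rests on a spread pooled over all 9 groups. Groups follow the ischemia times of the labels, with different mice as replicates.

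A pseudocount of 1 was added, and FPKM were put on the log2 scale and quantile normalized. The model, a mean for each ischemia time, was fitted with limma 3.58.1 (R 4.3.3) to 18188 genes above 0 FPKM in at least 3 kidneys. Genes were called where the log2 fold change exceeded 1 in size with a p, adjusted over all genes after Benjamini and Hochberg, of less than 0.05. Each time was compared with 0 min and with the time before it.

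The members and the gene lists were chosen with earlier results of these data known. Named genes were all members, other family and partner genes called in any comparison, and for each member the gene with the highest Pearson's r over 27 kidneys. Single genes of the marker lists, Anxa6, S100a1, S100a5, and uncalled partners were named after their values were seen. Coordinates come from GENCODE M21 and promoters from RefSeq, both on GRCm38. The fit was tested on simulated data. Alternatives were a pseudocount of 0.1, no quantile normalization, rescaling to a constant sum (TPM), a filter of 1 FPKM, no filter, a trend in eBayes, a replicate block, a fit of 2 groups and leaving out each kidney. Python 3.11.15 and matplotlib 3.10.9 drew the figures.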

Additional observations from a re-analysis of the deposited data

How the results depend on the processing

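Of 436 recomputed counts of called genes, 404 stayed within 1.5 times the reported count. Many of these were counts of 0, such as those between neighbouring times from 16 to 26 min, where no gene was called. Such counts had little room to change, so the share says little about the other counts. No called log2 fold change turned its direction. Among those not called, 24 of 896 recomputed values had the other sign, all from values of at most 0.25 in size, such as S100a11 at 30 against 28 min. In a fit of only the 2 groups compared, 0 members were called at 16 min in place of 5, with fewer degrees of freedom by construction. For the other annexin and S100 genes, a pseudocount of 0.1 FPKM gave 1 call at 20, 24 and 26 min each and 5 at 28 min, and rescaling to a constant sum gave 1 at 24 and 26 min and 6 at 28 min, in place of 0 and 3. Leaving out Sham replicate 3 and replicate 3 at 16 min together, chosen after seeing the data, gave 7 members at 16 min and 5 other family genes at 28 min. The cause of these shifts was not tested.

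With 1 kidney left out at a time, the members called were 2 to 7 at 16 min, 4 to 6 at 18 min, 4 to 7 at 20 and at 22 min, 4 to 5 at 24 min, 3 to 6 at 26 min, 7 to 8 at 28 min, 8 to 9 at 30 min, 0 to 4 at 28 against 26 min and 0 to 1 at 30 against 28 min. The other family genes were 0 to 1 at 18, 20 and 26 min, 0 to 2 at 24 min, 3 to 5 at 28 min, 5 to 8 at 30 min, 0 to 2 at 28 against 26 min and 0 to 1 at 30 against 28 min. Where a group was left with 2 kidneys, the spread was pooled over all groups.

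The replicate number as a block moved no count of members or family genes by more than 1.5 times: 5 members were called at 16 min and 4 at 28 against 26 min. Kidneys with the same number did not deviate together (median r -0.009 over 108 pairs, against -0.01 over 216 pairs of different numbers), and 8 of 27 correlated best with their own number. The unknown depth limits what can be said of genes under 1 FPKM, such as S100a3 and Anxa8.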
